A study of Homo sapiens with 2 samples.

Results

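The genes described here are 8 naive pluripotency factors, KLF4, KLF5, TFCP2L1, TFAP2C, DPPA3, DPPA5, NLRP7 and ALPG, taken by symbol from the 22474 genes of the deposited count tables, which list all 8. They were measured by Smart-seq2, which copies polyadenylated RNA of single cells along its full length and does not tag molecules. H9 is an established line of human embryonic stem cells. Its cells were studied in 2 states, as embryonic stem cells (ESCs, 16 cells) and, after conversion, as extended pluripotent stem cells kept without feeders (ffEPSCs, 25 cells). The study asked how gene expression differs between these states. Both states come from 1 cell line, and the sources used here do not give their media, passage or number of cultures.

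Human pluripotent cells are held in states that correspond to different ages of the epiblast. Conventional ESCs are called primed and resemble the epiblast after implantation, while naive cells resemble the epiblast before it. Naive cells are known for a set of transcription factors (KLF4, KLF5, TFCP2L1, TFAP2C), for proteins also found in oocytes and early embryos (DPPA3, DPPA5, NLRP7), and for the surface alkaline phosphatase ALPG. Extended pluripotent cells are described as having a wider developmental potential than primed ESCs.

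Levels are in CPM, the gene's counts as a share of all gene counts, scaled to a total of 1000000, and are given per cell or pooled over all cells of a state. The cells held 11714517 to 19965639 gene counts in the ESC library and 12507469 to 17811209 in the ffEPSC library. Each state is 1 deposited sample and cells are not replicates, so there is no test between the states and all values describe these 2 libraries. A log2 ratio is that of the pooled ffEPSC level to the pooled ESC level, with 1 CPM added to each, and a gene is called read in a cell at 1 CPM or more. Cell names carry a set number from 1 to 4 of unstated meaning. Both states are present in sets 1 and 3 (7 and 9 ESC cells, 3 and 2 ffEPSC cells), and sets 2 and 4 hold 9 and 11 ffEPSC cells and no ESC cell, so set and state cannot be told apart for them. In 4 ESC cells, with 11714517 to 14683949 counts against 16349317 or more in the other 12, the core factor gene POU5F1 was at 63.5 to 218 CPM, against 496 to 1310 CPM in the other 12 cells. Ratios that left their counting interval without those 4 cells are given both ways.

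As a group the naive factors were higher in the ffEPSC library. By a margin of 2-fold or more, 7 of the 8 were higher and 0 were lower. Over all listed genes, 6.9% were higher by that margin and 5.04% were lower. KLF5 was the exception and was barely read in either state. Within set 1 the count of members higher by that margin was 5 of 8, and within set 3 it was 4 of 8. The median log2 ratio of the 8 was 2.48, beside 0.03 over all 22474 genes, and 1.22 within set 3. The same 7 reached 5 CPM in at least 1 library, 6 of them through the ffEPSC library alone, and 8.3% of the genes above that floor were higher by 2-fold or more. The members were chosen with earlier results of these data known, so the count describes them and supports nothing further. A pooled level cannot tell fewer reading cells from less RNA per cell, so both are given for each gene. A gene without a count in a cell was not read there, which does not show that it was absent.

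**Figure D1:**
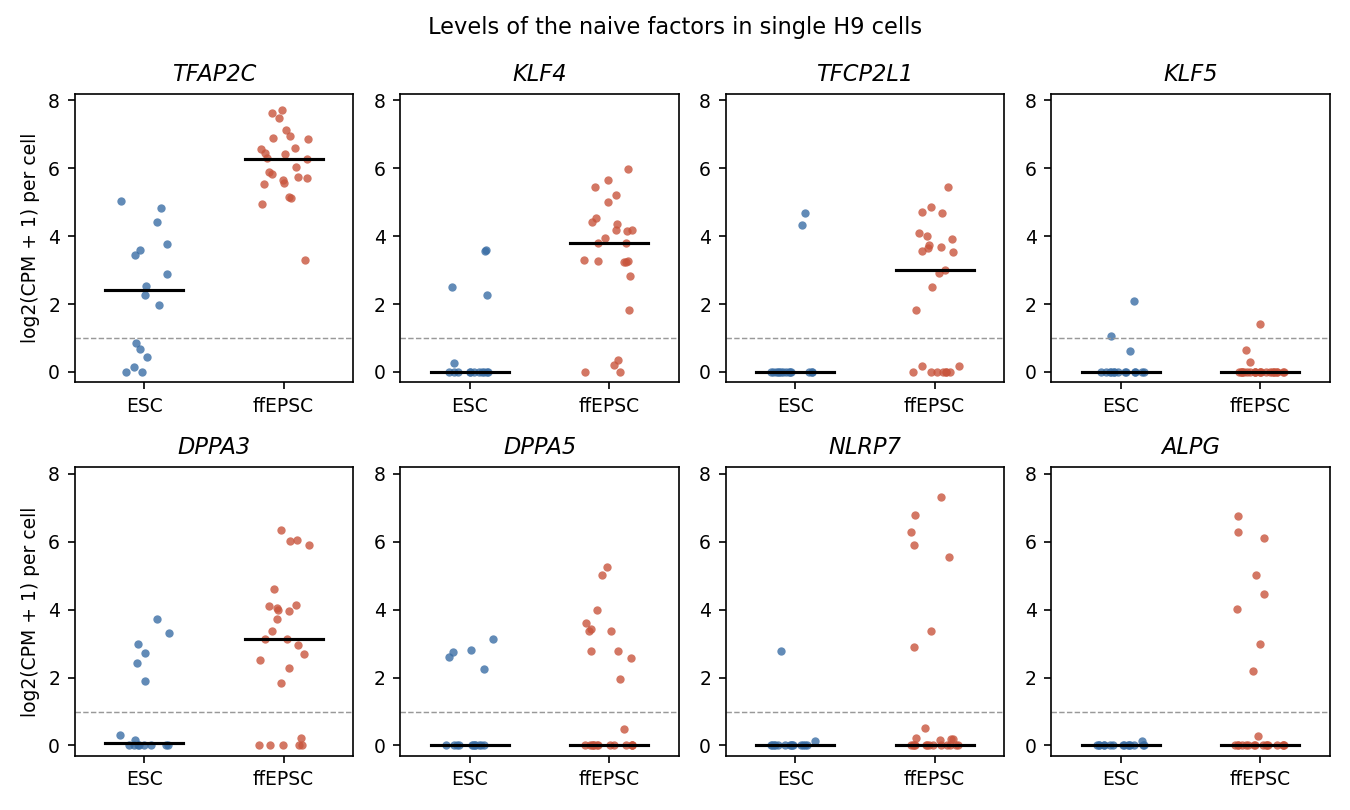
Level of each naive factor in each cell on the log2(CPM + 1) scale, with ESC cells in blue, ffEPSC cells in red, black bars at the median over cells and a dashed line at 1 CPM. TFAP2C lies above 1 CPM in all 25 ffEPSC cells, while NLRP7 and ALPG have a median of 0 in both states and a few ffEPSC cells far above it.

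Among the transcription factors, TFAP2C stood out as the member read in every ffEPSC cell. TFAP2C encodes AP-2 gamma, a factor that opens enhancers in naive cells and also acts in trophoblast and germ cells. Its gene spans chromosome 20 from 56629302 to 56639283 (GRCh38, as for all positions). Across the 16 ESC cells it ran from 0 to 32.1 CPM with a median of 4.32, and across the 25 ffEPSC cells from 8.74 to 210.7 CPM with a median of 76.9. The ranges overlapped, but 23 of the 25 ffEPSC cells lay above every ESC cell. Pooled levels were 7.75 and 85.7 CPM, a log2 ratio of 3.31, with a 95% counting interval of 10.4 to 11.8 for the 11.1-fold difference. The ratio was 3.45 within set 1 and 3.08 within set 3. The 4 shallow ESC cells had a median of 15.2 CPM and the other 12 of 3.37 CPM, and without the 4 the log2 ratio was 3.67. TFAP2C was the one member whose highest ESC value, 32.1 CPM, came from one of these 4 cells. The part of depth in this was not tested.

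Genes of chromosome 20 as a whole were higher in many ffEPSC cells, so TFAP2C was set beside them. The chromosome's shift in a cell is the mean difference in log2(CPM + 1) from the ESC cells over its genes with a mean of 20 CPM or more, less that of the cell's median autosome, with the 8 members left out. It was -0.40 to 0.17 in ESC cells. Of the ffEPSC cells 17 had a shift of 0.51 to 0.74 and the other 8 had -0.20 to 0.36, a split made at 0.4 after the values were seen. TFAP2C ran from 29.97 to 210.7 CPM (median 85.0) in the 17 cells and from 8.74 to 124 CPM (median 50.1) in the 8. In both groups all but 1 cell exceeded every ESC cell (16 of 17 and 7 of 8). The group of 8 includes cells with a shift above the ESC range, so it is not a group without a shift. The part of the chromosome 20 shift in the TFAP2C level was not tested. The median log2 ratio of 282 chromosome 20 genes with 5 CPM or more was 0.39, and 2 of these genes had a ratio as large as that of TFAP2C, itself included.

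**Figure D2:**
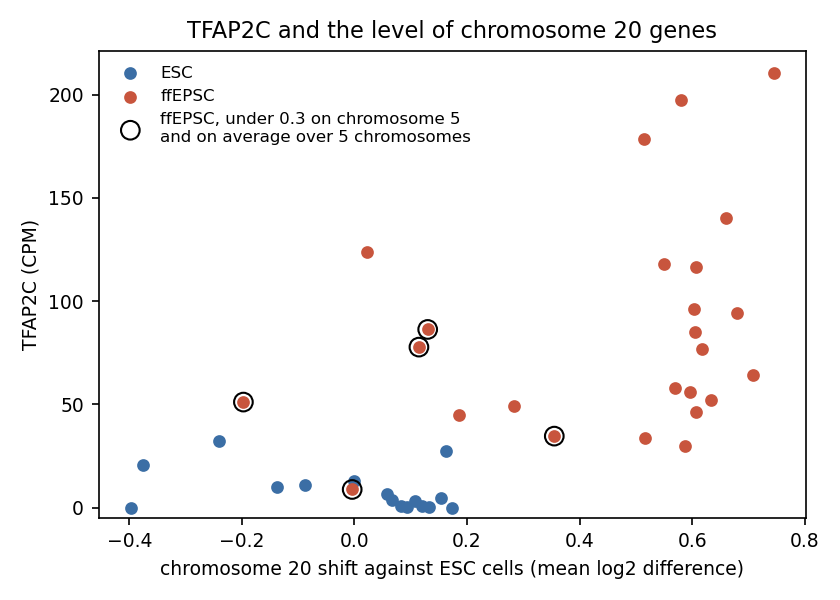
TFAP2C level in CPM against the chromosome 20 shift for ESC cells (blue) and ffEPSC cells (red); rings mark the 5 ffEPSC cells with a shift under 0.3 both on chromosome 5 and on average over chromosomes 5, 11, 14, 20 and 22. The 8 ffEPSC cells with a shift under 0.4 hold 8.74 to 124 CPM, and 7 of them lie above every ESC cell.

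KLF4, a zinc finger factor and one of the classical reprogramming factors, acts below LIF signalling in naive cells. The gene is on chromosome 9, from 107484852 to 107490482. Levels ran from 0 to 11.01 CPM with a median of 0 in ESC cells, and in ffEPSC cells from 0 to 62.4 CPM with a median of 12.98. Of the ESC cells 4 of 16 read KLF4, and of the ffEPSC cells 21 of 25, with and without thinning to 1 depth, which is 25% (95% Clopper-Pearson interval 7.27 to 52.4) and 84% (63.9 to 95.5). Of the ffEPSC cells, 14 lay above every ESC cell. Pooled levels were 1.98 and 17.3 CPM (log2 ratio 2.61, and 3.57 and 2.30 within sets 1 and 3). It was 2.40 without the 4 shallow ESC cells.

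TFCP2L1, a factor of the CP2 family that holds the naive state, differed in how many cells read it rather than in the level in those cells. The gene is on chromosome 2, from 121216587 to 121285207. In ESC cells it ran from 0 to 24.7 CPM with a median of 0, and in ffEPSC cells from 0 to 42.2 CPM with a median of 6.97. It was read in 2 of 16 ESC cells, both of set 3 and at 18.9 and 24.7 CPM, and in 16 of 25 ffEPSC cells. The mean over reading cells was 21.8 CPM in ESCs and 15.2 CPM in ffEPSCs, 0.697 times as high, while the share of reading cells was 5.12 times as high. Pooled levels were 2.88 and 9.86 CPM (log2 ratio 1.49, and 1.25 without the 4 shallow ESC cells). The ratio differed between the sets: it was 3.74 within set 1, where no ESC cell had a count, and 0.14 within set 3, where both reading ESC cells lie.

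KLF5, a relative of KLF4 with a place in the early embryo and in epithelia, was near the limit of detection. Its position is chromosome 13, 73054976 to 73077542. It ran from 0 to 3.26 CPM in ESC cells and in ffEPSC cells from 0 to 1.65 CPM, with a median of 0 in both. It had 84 counts in 3 ESC cells and 36 counts in 3 ffEPSC cells, or 0.316 and 0.0962 CPM. Without a pseudocount this is 0.304 times the ESC level, with a counting interval of 0.165 to 0.540 from these few counts. The log2 ratio was -0.26 over all cells, -1.09 with a pseudocount of 0.1 CPM in place of 1 CPM, and 0.64 within set 1.

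The genes of the oocyte and early embryo proteins were read in part of the ffEPSC cells. DPPA3, also called STELLA, protects methylation marks in the zygote and promotes loss of methylation in naive cells. Its position is chromosome 12, 7711454 to 7717559. ESC levels ran from 0 to 12.2 CPM with a median of 0.0603, and ffEPSC cells from 0 to 80.1 CPM with a median of 7.72. DPPA3 was read in 6 ESC cells and 19 ffEPSC cells, and 11 of the latter lay above every ESC cell. Pooled levels were 2.58 and 17.1 CPM (log2 ratio 2.34, and 3.07 and 3.79 within sets 1 and 3). DPPA3 shares sequence with pseudogenes: 45.9% of the 50-base windows of its transcript and 17.2% of its 100-base windows occur in transcripts of other genes, mostly DPPA3P2. The sources used here do not say how reads with several matches were counted, so its level is uncertain.

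DPPA5, an RNA-binding KH-domain protein of pluripotent cells, was higher in the ffEPSC library over all cells and lower in both sets that hold the 2 states. The gene is on chromosome 6, from 73353062 to 73354295. ESC cells ran from 0 to 7.79 CPM and ffEPSC cells from 0 to 37.2 CPM, with a median of 0 in both. Reads were found at 1 CPM or more in 5 ESC cells and 11 ffEPSC cells, and pooled levels were 1.78 and 5.75 CPM (log2 ratio 1.28). All reading ffEPSC cells belonged to sets 2 (6 of 9 cells) and 4 (5 of 11). None of the 3 and 2 ffEPSC cells of sets 1 and 3 had a count, so the ratio was -1.54 and -1.42 within those sets. Beside chromosome 20, chromosomes 5, 11, 14 and 22 were shifted upward in most ffEPSC cells. The mean shift over these 5 chromosomes was under 0.3 in 7 ffEPSC cells, a limit set after the values were seen. In the 5 of them whose chromosome 5 shift was also under 0.3, DPPA5 had 0 counts (log2 ratio -1.47 against ESCs). Of the 7 cells 1 read it, at 5.89 CPM (log2 ratio -0.57). The 5 cells include both ffEPSC cells of set 3 and 1 of set 1. The part of set or shift in the DPPA5 level was not tested.

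NLRP7, a member of the NLR family whose loss in mothers causes hydatidiform moles, was carried by few cells. Its position is chromosome 19, 54923509 to 54966312. ESC cells ran from 0 to 5.93 CPM and ffEPSC cells from 0 to 158 CPM, with a median of 0 in both. A single ESC cell (1 of 16) and 7 of 25 ffEPSC cells read it, and those 7 lay above every ESC cell. The highest 2 ffEPSC cells held 56.1% of the library's NLRP7 counts. Pooled levels were 0.392 and 18.9 CPM (log2 ratio 3.84), and the ratio was 0.24 within set 1, where none of 3 ffEPSC cells read it, and 4.32 within set 3, where both did. NLRP7 overlaps NLRP2 in the annotation and shares 9.66% of its 50-base windows with it. NLRP2 itself was at 122 and 130 CPM (log2 ratio 0.09).

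ALPG, a placental-type alkaline phosphatase on the cell surface, had 2 counts in the whole ESC library and 4840 in the ffEPSC library. The gene is on chromosome 2, from 232406843 to 232410714. ESC cells ran from 0 to 0.1002 CPM and ffEPSC cells from 0 to 106 CPM, with a median of 0 in both. It was read in 0 of 16 ESC cells, which by the rule of 3 counts allows a share of up to 18.75% (exact upper bound 20.6%), and in 8 of 25 ffEPSC cells. Pooled levels were 0.00754 and 12.9 CPM (log2 ratio 3.79), a 1717-fold difference with a counting interval of 308 to 67842, since the lower value rests on 2 counts. The reading cells were all 3 of set 1 and 5 of 11 in set 4, with 0 of 9 in set 2 and 0 of 2 in set 3. The highest 2 cells held 56.2% of the counts. ALPG and its neighbour ALPP are near-identical copies: 29.3% of the 50-base windows of ALPG occur in transcripts of other genes, ALPP above all. ALPP had 226 counts, 4.67% of those of ALPG, in 8 ffEPSC cells that all had ALPG counts, so reads of the 2 copies cannot be told apart with certainty.

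**Figure D3:**
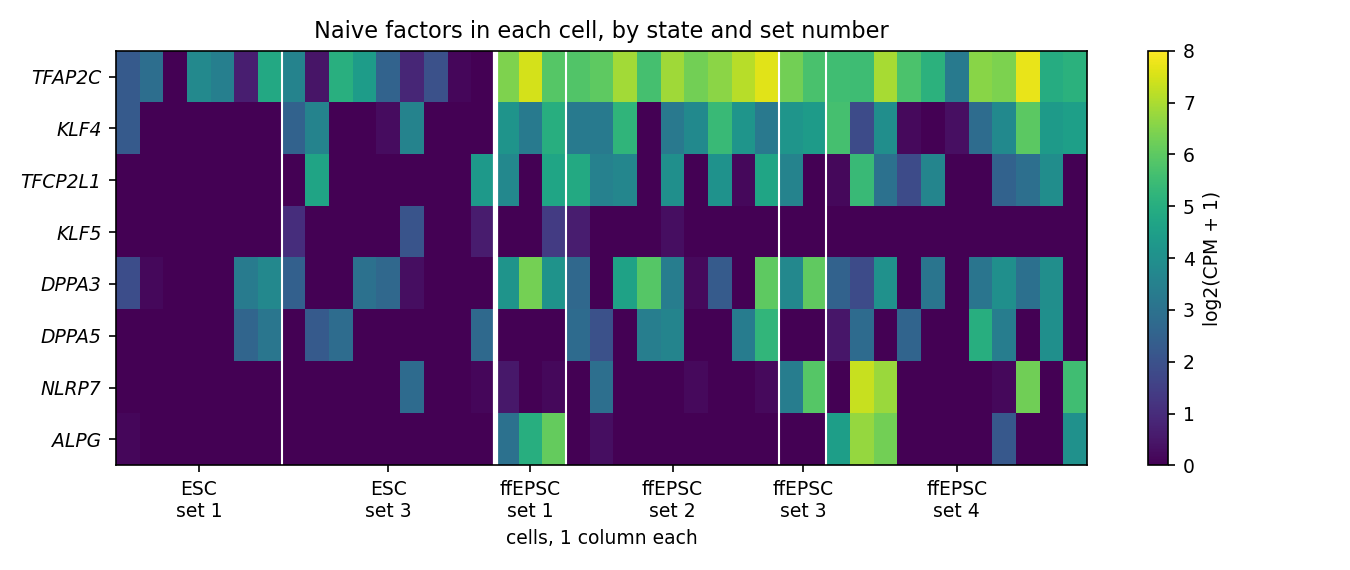
Level of the naive factors in each of the 41 cells on the log2(CPM + 1) scale, with 1 column per cell and cells grouped by state and set number. ALPG is read in all 3 ffEPSC cells of set 1 and in none of set 2, and DPPA5 in 6 of the 9 cells of set 2 and in none of set 1.

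Levels can be compared between genes only per length of transcript. Per kilobase of annotated exon, pooled ffEPSC levels were 28.5 CPM for TFAP2C, 15.8 for DPPA3, 8.47 for DPPA5, 5.19 for ALPG, 4.84 for NLRP7, 4.72 for KLF4, 1.05 for TFCP2L1 and 0.0247 for KLF5. Each step between neighbours in this order was smaller than the larger SD over cells of the pair. ESC levels on this scale were highest for DPPA5 (2.62), TFAP2C (2.58) and DPPA3 (2.39), and all other members were at 0.542 or less.

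The difference between the states was made up differently from gene to gene. For TFAP2C the share of reading cells was 1.6 times as high in ffEPSCs and the mean level in reading cells 6.48 times as high (13.1 and 85.1 CPM). For KLF4 these values were 3.36 and 2.67, for DPPA3 2.03 and 3.32, and for DPPA5 1.41 and 2.28. For NLRP7 they were 4.48 and 11.2, with only 1 reading ESC cell. TFCP2L1 was the member at least 2-fold higher in pooled level whose mean in reading cells was lower in ffEPSCs, leaving aside ALPG, which no ESC cell read. In counts thinned to 11000000 per cell, 7 of the 8 members were read in a larger share of ffEPSC than of ESC cells, and 40.9% of all listed genes were.

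**Figure D4:**
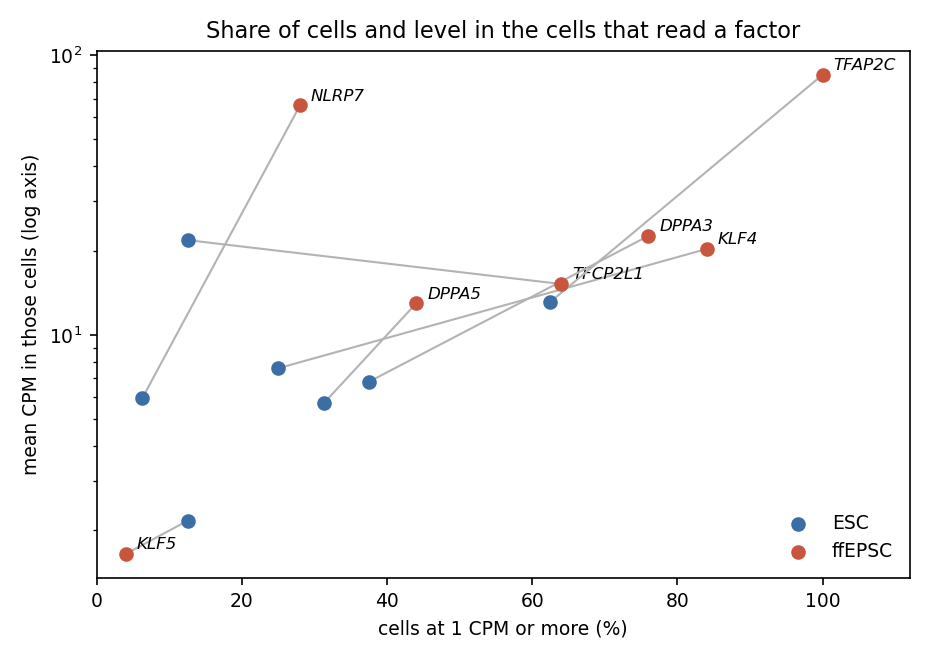
Percent of cells at 1 CPM or more (x axis) and mean CPM in those cells (y axis, log scale) for the 7 factors read in both states, with a grey line joining ESC (blue) and ffEPSC (red). TFCP2L1 moves from 12.5% to 64% of cells at a lower mean, and TFAP2C from 62.5% to 100% at a mean 6.48 times as high.

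Most ffEPSC cells read several factors at once. After thinning, ESC cells read 0 to 4 of the 8 members (median 2) and ffEPSC cells 1 to 7 (median 4). At least 4 members were read in 1 of 16 ESC cells (6.25%, interval 0.158 to 30.2) and in 19 of 25 ffEPSC cells (76%, interval 54.9 to 90.6). The ESC count depended on the limit: it was 0 at 5 CPM, 5 of 16 with any count, and 2 of 14 cells thinned to 13000000. Without thinning the counts were also 1 and 19. The 19 ffEPSC cells were the same cells, but the ESC cell was a different one, with KLF5 at 1.08 CPM in one and TFAP2C at 0.814 CPM in the other. By set, 3 of 3, 6 of 9, 2 of 2 and 8 of 11 ffEPSC cells of sets 1 to 4 read at least 4, against 0 of 7 and 1 of 9 ESC cells of sets 1 and 3. KLF4, TFCP2L1, TFAP2C and DPPA3, the members read in at least 50% of ffEPSC cells, were read together in 13 of 25 ffEPSC cells and 0 of 16 ESC cells. They were picked by their share in ffEPSCs, so the contrast between the states is fixed in part by that choice and is a description. The ffEPSC cell with 1 member read TFAP2C alone, at 8.74 CPM, the lowest value of that state.

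**Figure D5:**
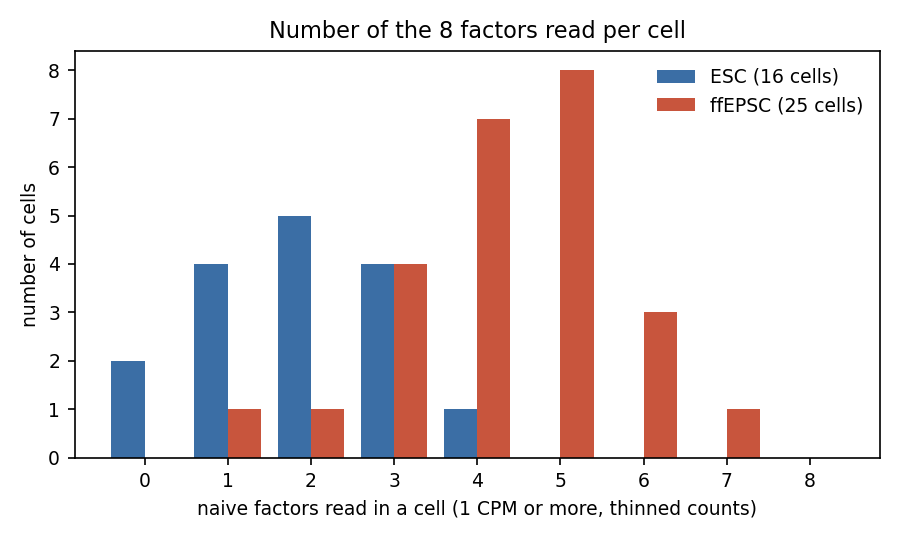
Number of cells (y axis) by how many of the 8 naive factors they read at 1 CPM or more in thinned counts (x axis), for 16 ESC cells (blue) and 25 ffEPSC cells (red). ESC cells hold 0 to 4 factors and ffEPSC cells 1 to 7.

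Within the ffEPSC state the factors formed no fixed combination. The 25 cells showed 19 different combinations, the most frequent being KLF4, TFCP2L1, TFAP2C, DPPA3 and DPPA5 in 4 cells. TFCP2L1 was read in 14 of the 21 cells that read KLF4 and in 2 of the 4 that did not. All 7 cells with NLRP7 and all 8 with ALPG also read KLF4, as did 21 of all 25 cells, and 3 cells read both NLRP7 and ALPG. DPPA5 and ALPG were read together in 2 cells, against 9 with DPPA5 alone of the pair and 6 with ALPG alone. ALPG was read in 0 of 9 cells of set 2 and DPPA5 in 0 of 3 cells of set 1, and the part of set in this was not tested. Over the 28 pairs, Spearman's rho of the levels across the 25 cells ran from -0.40 to 0.47 with a median of 0.08. These are weak values from sparse counts of cells that share sets and depth, and no pair is singled out by its rho.

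The number of members read was set beside other properties of the cells. Across ffEPSC cells its rho was 0.34 with depth, 0.33 with the number of genes with a count, 0.06 with POU5F1, and -0.53 with the summed CPM of 18 primed genes. Across ESC cells the same values were 0.13, 0.28, 0.23 and 0.50, so the primed genes ran the opposite way in the 2 states. The part of depth in these values was not tested.

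For each of the 4 members read in at least 50% of ffEPSC cells, the genes most like it were those with the highest Spearman rho over the 25 cells among 10203 genes with 5 CPM. For KLF4 they included MTCH1 (0.73) and TMEM214 (0.67), and for TFCP2L1 they were MBD1 (0.70), ACBD6 (0.68) and NUP85 (0.67). For TFAP2C they were MAIP1 (0.74), PDGFA (0.69) and CHIC1 (0.68), and for DPPA3 they were AIRIM (0.68), CPSF3 (0.64) and CENPQ (0.63). Across the 16 ESC cells the pairs named here had values from -0.53 (TFCP2L1 with ACBD6) to 0.53 (TFCP2L1 with MBD1). These are the highest of many values and describe these cells.

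Many further naive genes had higher ffEPSC levels. Of 34 such genes outside the 8 members, 25 were listed and 16 reached 5 CPM in a library. By 2-fold or more, 9 of these 16 were higher in ffEPSCs and 0 were lower, where 8.3% and 5.84% of all genes above the floor were. Among the 9, DNMT3L, FGF4, SOX15 and SUSD2 reached the floor through the ffEPSC library alone. These genes were also listed with earlier results of these data known, so the count is a description. Their median log2 ratio was 1.27, beside 0.04 over all 10825 genes above that floor, and 0.77 over all 25 listed. DNMT3L, a cofactor of DNA methyltransferases, ran from 0 to 1.101 CPM in ESC cells and from 1.80 to 1114 CPM in ffEPSC cells, which do not overlap. FGF4 (0 to 0.241 CPM in ESC cells, 0 to 98.1 CPM in ffEPSC cells), SOX15 (log2 ratio 4.37) and VENTX (2.55) were the next 3. NR5A2 (9.38 and 5.48 CPM, log2 ratio -0.68), ZFP42 (186 and 138 CPM, -0.43) and DPPA4 (-0.09) were lower, each by less than 2-fold. PRDM14 (0.17), NLRP2 (0.09), ST6GAL1 (0.41) and ATAD3B (0.73) were higher by less than 2-fold. The count of 9 was 5 within set 3 and 5 against the 5 ffEPSC cells with a shift under 0.3 on chromosome 5 and on average, and it was 9 against the 7 cells under that average. KLF2 and KLF17 are not listed and not analysed here.

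Relatives of the members were counted at the same floor of 5 CPM, above which 8.3% of all genes were higher by 2-fold or more. Of 16 further KLF genes, 8 reached 5 CPM and 2 of these passed 2-fold, KLF3 (7.45 and 18.8 CPM, log2 ratio 1.23) and KLF11 (4.39 and 11.4 CPM, 1.21). KLF11 reached the floor through the ffEPSC library alone. Of the CP2 and grainyhead genes, 3 reached 5 CPM and 0 passed 2-fold in either direction. TFCP2, a relative of TFCP2L1, was at 42.0 and 41.9 CPM. The other 4 AP-2 genes were not listed, so TFAP2C is the member of its family analysed here. ALPL, the tissue-nonspecific alkaline phosphatase known from stem cell staining, was at 160 and 121 CPM (log2 ratio -0.39), within 2-fold. Its ranges over cells overlapped (0 to 347 CPM in ESCs, 38.7 to 219 CPM in ffEPSCs). DPPA2 (11.4 and 57.5 CPM, 2.24) was higher, while DPPA4, its partner protein, was at 989 and 930 CPM (-0.09). In the list of NLR genes and the maternal complex NLRP7 belongs to, 3 genes reached 5 CPM and 2 were higher by 2-fold or more. These were NLRP12 (4.81 and 12.5 CPM, 1.21) and TLE6 (1.74 and 11.5 CPM, 2.19). Both reached the floor through the ffEPSC library alone, so this count is a description. Genes of the primed state mostly ran the other way. Of 17 measured, 7 were lower by 2-fold or more and 0 were higher by as much (median log2 ratio -0.82). Of all genes above the floor, 5.84% were lower by that margin. The first 4 were CYTL1 (-3.79), DUSP6 (-2.85), FZD7 (-2.42) and CDH2 (-1.98). DNMT3B (427 and 586 CPM, 0.46) and TCF7L1 (31.3 and 49.0 CPM, 0.63) were higher.

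TFAP2C, NLRP7 and ALPG are also genes of trophoblast, and TFAP2C and DPPA3 of germ cells, so markers of other cell types were set beside them. Of 18 trophoblast genes 9 were listed, and GATA3, GATA2 and CCR7 had 0 counts in ESCs. Their summed level ran from 317 to 2096 CPM in ESC cells and from 919 to 5980 CPM in ffEPSC cells, nearly all from the keratins KRT8 and KRT18. Of the 4 trophoblast genes with 5 CPM in a library, 1 was higher by 2-fold or more (KRT8, log2 ratio 1.44). Another 1 was lower by as much (KRT7, 6.93 and 1.63 CPM, -1.60), and KRT18 (0.89) and SLC7A2 (-0.17) stayed within 2-fold. KRT7 reached the floor through the ESC library alone. Above that floor 8.3% of all genes were higher and 5.84% lower by that margin. GATA3 was read in 3 ffEPSC cells and GATA2 in 5, both with a highest value under 10 CPM. Of the 8 cells with ALPG, GATA3 was read in 0, GATA2 in 1 (3.13 CPM) and CCR7 in 1 (5.85 CPM). Of the 7 cells with NLRP7, GATA3 was read in 0, GATA2 in 1 (9.77 CPM) and CCR7 in 1 (6.51 CPM). The summed trophoblast list was 1501 to 5980 CPM (median 2874) in cells with ALPG and 919 to 4152 CPM (median 2703) in the other 17. Of 10 germ cell genes 5 were listed, summing to 170 to 514 CPM in ESC cells and 103 to 422 CPM in ffEPSC cells, most of it from PDPN. Of 7 amnion genes 5 were listed (0.148 to 53.9 CPM and 0 to 185 CPM), and of 10 primitive endoderm genes 7 were listed (26.5 to 131 CPM and 38.0 to 250.1 CPM). Of 10 fibroblast or feeder genes 7 were listed, summing to 143 to 765 CPM in ESC cells and 47.6 to 414 CPM in ffEPSC cells. Most of this came from THY1 (382 and 169 CPM pooled, log2 ratio -1.18), which is also among the 18 primed genes. Of the 5 fibroblast or feeder genes with 5 CPM, 4 were at least 2-fold lower, THY1 among them, led by S100A4 (-4.59) and TAGLN (-1.83). Of all genes above that floor 5.84% were. S100A4 and COL1A1 reached the floor through the ESC library alone. The part of any of these lists in the levels of the naive factors was not tested.

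The promoters of the members differ in their content of CpG, the site of DNA methylation in vertebrates. RefSeq windows on GRCh38.p14 were matched for 7 of the 8 genes, and the 250 bases before the RefSeq start were used. For KLF4, NLRP7 and one of 2 KLF5 starts, the window lies wholly inside the GENCODE span of the gene. The windows of TFCP2L1, DPPA5 and ALPG overlap the 5′ end of that span in part. None of these windows is therefore upstream of the whole gene. The median of 35116 such windows is 11 CpG. The first 2 sequences come from members above that median and the last 2 from members below it, written 5′ to 3′ on the gene's strand with each CpG in capitals.
TFCP2L1 promoter, chr2:121285203-121285452, minus strand: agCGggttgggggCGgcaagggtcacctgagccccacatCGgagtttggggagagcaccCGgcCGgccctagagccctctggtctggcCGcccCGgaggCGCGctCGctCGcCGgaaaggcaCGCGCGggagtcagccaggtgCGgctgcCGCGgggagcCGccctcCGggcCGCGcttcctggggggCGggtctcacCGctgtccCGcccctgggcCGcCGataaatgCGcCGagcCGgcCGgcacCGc
DPPA5 promoter, chr6:73354277-73354526, minus strand: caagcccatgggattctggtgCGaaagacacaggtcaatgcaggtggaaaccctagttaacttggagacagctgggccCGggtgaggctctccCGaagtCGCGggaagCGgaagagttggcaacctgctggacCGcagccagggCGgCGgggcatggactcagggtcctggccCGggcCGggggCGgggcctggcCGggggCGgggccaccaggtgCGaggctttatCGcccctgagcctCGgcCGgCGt
DPPA3 promoter, chr12:7711183-7711432, plus strand: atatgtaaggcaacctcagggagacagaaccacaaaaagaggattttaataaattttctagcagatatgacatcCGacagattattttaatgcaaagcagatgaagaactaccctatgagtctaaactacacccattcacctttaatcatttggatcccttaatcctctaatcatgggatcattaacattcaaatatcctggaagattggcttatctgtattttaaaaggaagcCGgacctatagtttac
ALPG promoter, chr2:232406594-232406843, plus strand: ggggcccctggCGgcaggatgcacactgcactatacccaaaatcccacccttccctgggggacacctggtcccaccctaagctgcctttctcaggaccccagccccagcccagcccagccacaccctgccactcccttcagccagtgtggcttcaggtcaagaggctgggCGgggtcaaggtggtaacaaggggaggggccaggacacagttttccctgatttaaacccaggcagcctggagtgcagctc

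KLF4 has 25 CpG in this window, more than 78.4% of all windows, and TFCP2L1 has 32, more than 90.5%. DPPA3 and ALPG have 2 each, more than 14.7% of windows, although ALPG has 63.2% G and C and DPPA3 35.6%. NLRP7 has 5 and DPPA5 has 19, and KLF5 has 3 and 27 at its 2 annotated starts. Members with many and with few CpG were both among those at least 2-fold higher. Searched on both strands, the AP-2 motif GCCNNNGGC occurs in 3 of the 7 genes' windows (KLF4, DPPA5 and ALPG) and in 19.8% of all windows. The KLF motif GGGNGTGG occurs in 1 (ALPG) and in 15.7% of all windows. Matches of the 2 motifs may overlap, and they describe the letters and not binding.

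On the genome the members lie apart, and their listed neighbours differed between the states to varying degrees. Within 100000 bases of DPPA3 lie GDF3 (60.2 and 390 CPM, log2 ratio 2.68) and NANOG (132 and 175 CPM, 0.40). The neighbours of DPPA5 include KHDC3L, at 0 and 0.7003 CPM, and KHDC1, at 0.0452 and 0.278 CPM. CLASP1 beside TFCP2L1 (0.47), PIBF1 beside KLF5 (-0.32) and DIS3L2 beside ALPG (-0.02) stayed within 2-fold, while RDH13 near NLRP7 (1.28) and ECEL1 near ALPG (1.39) did not.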

How the data were processed

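Single H9 cells of 2 states were analysed from the tables of gene counts, deposited by the authors as whole-number counts without normalization, with 1 column per cell. Taking each column as 1 cell follows the series' single-cell design. The labels' protocols also name an RNA kit made for bulk material, and every share of cells rests on this reading of the columns. Per the submitters' processing notes, bcl2fastq, HISAT2 2.2.1, SAMtools 1.6 and featureCounts from Subread 2.0.6 were used, with GRCh38 and a further human build named without roles. The sources used here do not give the annotation, strand use or handling of multi-mapped reads. The repeat tables were not used.

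All 41 cells had at least 100000 counts and 2000 genes, and 0 were removed. No pair of cells had identical counts. Doublets were not called and cells were not clustered. Of all non-zero counts 98.4% were even, and so were all 162 of the members, which fits a count of both mates. Counting intervals (95%, exact Poisson or conditional binomial) therefore used halved counts. Shares have Clopper-Pearson intervals. All intervals cover counting error only. Shares of reading cells used counts thinned to 11000000 per cell unless a mean of reading cells is given beside them, which used full counts.

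Coordinates and exon lengths come from GENCODE version 29 (GRCh38), which matched 21289 listed genes. Each named list contributes at most 4 genes, those with the largest ratio in either direction at 5 CPM or more. Other genes were named after their values were seen. For each member read in at least 50% of ffEPSC cells, the 3 genes most like it were taken, of which 1 is not reported here. The members and the 14 lists were chosen with earlier results of these data known. Python 3.11.15 and, for TMM factors, edgeR 4.0.16 were used. Tested on data simulated for this comparison (22474 genes, of which 200 differed), a true 2-fold, 4-fold or 8-fold difference gave a median log2 ratio of 0.82, 1.93 or 2.88. The genes made to differ had a mean of 20 CPM or more in ESC cells. Pooled ESC levels of the members were at most 7.75 CPM, where the added 1 CPM shrinks a ratio more, so the simulation does not cover their range. Alternatives covered scaling, pseudocount, floor, depth, thinning, sets, chromosome shift and the highest cell.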

Additional observations from a re-analysis of the deposited data

How the results depend on the processing

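The median log2 ratio of the 8 members (2.48) was 2.87 with a pseudocount of 0.1 CPM, 3.26 within set 1, 1.22 within set 3, 2.17 in cells with at least 15000000 counts and 1.62 against the 5 ffEPSC cells with a shift under 0.3 on chromosome 5 and on average over 5 chromosomes (2.16 against the 7 under that average). The 7 members at least 2-fold higher became 5 within set 1, 4 within set 3, and 6 against either the 5 or the 7 ffEPSC cells. The 9 other naive genes at least 2-fold higher became 5 within set 3 and 5 against the 5 ffEPSC cells. The number of ESC cells reading at least 4 members was 0 at 5 CPM, 5 with any count and 2 of 14 at a thinning depth of 13000000. For ffEPSCs it was 9 of 10 in cells with at least 15000000 counts, where fewer cells were left. DPPA5 turned to -1.54 and -1.42 within sets 1 and 3 and to -1.47 and -0.57 against the 5 and 7 ffEPSC cells. KLF5 turned to 0.64 within set 1, and its lowest value was -1.09, with the pseudocount of 0.1 CPM. Over 10 alternatives the log2 ratio kept its sign for KLF4 (1.95 to 3.57), TFAP2C (2.61 to 3.77), DPPA3 (1.91 to 3.79), TFCP2L1 (0.14 to 3.74) and NLRP7 (0.24 to 5.27), and ran from 0 to 6.92 for ALPG, which had no count in set 3. The alternatives without the 4 shallow ESC cells and with the 7 ffEPSC cells were chosen after seeing the data. Apart from the smaller numbers of cells, the cause of these changes was not tested. With 1 sample per state, depth and intervals say nothing of the spread between cultures. No paired analysis was possible because each state is 1 sample.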
